A study of Mus musculus with 9 samples.

Results

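Genes of the lysosome, of its proton pump and of autophagy were examined in sorted mouse oligodendroglia. The members were all measured genes whose symbol begins with Atp6v, Lamtor, Vps or Atg, the cathepsins named Cts with 1 further letter, the Lamp genes and Tfeb. Of 11315 measured genes, 83 met this rule, which goes by symbol alone but was set with earlier results of these data known. They were 16 subunits of the vacuolar ATPase (9 of the V1 sector and 7 of the V0 sector), 5 Ragulator subunits, 11 cathepsins, 2 LAMP proteins, 31 vacuolar protein sorting (Vps) genes, 17 Atg genes and Tfeb. The series holds 9 RNA-seq libraries from C57BL/6 mouse brain at postnatal day 60, with 3 each from cells sorted by an NDRG1-eGFP, a PLP-GFP or a PDGFRa-GFP reporter. The labels call these cells myelinating oligodendrocytes, pre-myelinating oligodendrocytes and oligodendrocyte progenitors. Nothing in the labels ties the 3 libraries of a group to separate animals, and p-values here cover only how these libraries varied, which may be technical.

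The lysosome is the acidic compartment in which cells break down proteins, lipids and membranes. The vacuolar ATPase pumps protons into it, with a V1 sector that hydrolyses ATP and a V0 sector that carries protons through the membrane. Cathepsins are its proteases, LAMP proteins coat its membrane from inside, Ragulator holds nutrient sensing at its surface, Vps complexes deliver cargo to it, and autophagy brings in the cell's own material. The transcription factor TFEB activates many of these genes through a short promoter element built around CACGTG. Oligodendrocytes use lysosomes and late endosomes to store and recycle myelin protein.

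Values are log2 normalized expression as deposited, with a library median of 10.57 in every library. A gene was called where limma gave a Benjamini-Hochberg adjusted p under 0.05 over all 11315 genes, and fold changes are log2 with the standard error (SE), n = 3 libraries per group. The sequencing depth is unknown. Ndrg1 itself did not pass the test in any of the 3 comparisons (adjusted p = 0.301, 0.833 and 0.255). Pdgfra was low in all groups, running in NDRG1-eGFP libraries from 4.98 to 6.26, in PLP-GFP from 1.52 to 4.98 and in PDGFRa-GFP from 5.47 to 7.54. Over 10 oligodendrocyte markers the library medians were 18.39 to 18.48 in NDRG1-eGFP, 17.93 to 18.14 in PLP-GFP and 17.65 to 18.20 in PDGFRa-GFP libraries, so libraries labelled as progenitors held myelin transcripts, and groups are named by reporter. In bulk samples, fewer cells of a type and less RNA per cell cannot be told apart.

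RefSeq promoter windows (GRCm38.p6), which run from 250 bases before to 50 bases after a start site, matched 62 of the 83 members. The letters CACGTG, which read the same on both strands, stood in 18 of these 62 genes (29.0%) and in 11.98% of the 8726 matched genes of the whole table. The longer TCACGTG, searched on both strands and containing CACGTG, stood in 15 members (24.2%) and in 7.25% of all matched genes, and in 3.77% of all 32851 windows. A match describes letters in this window and not a bound site. TCACGTG stood in more than 1 copy in windows of Lamp1, Ctsd, Atg3 and Vps26a, which are not shown. It also did in windows of 4 members from different complexes, which are shown. Capitals mark each CACGTG and the flanking letter that completes the longer motif on either strand. The windows shown lie at chr5:123572966-123573265 (Vps33a) and chr4:117887280-117887579 (Atp6v0b), both on the minus strand. Those of Ctsa and Lamtor4 lie at chr2:164833523-164833822 and chr5:138255232-138255531, both on the plus strand. A second Ctsa window, chr2:164832622-164832921, which covers the start of the annotated gene, held no CACGTG.
Vps33a: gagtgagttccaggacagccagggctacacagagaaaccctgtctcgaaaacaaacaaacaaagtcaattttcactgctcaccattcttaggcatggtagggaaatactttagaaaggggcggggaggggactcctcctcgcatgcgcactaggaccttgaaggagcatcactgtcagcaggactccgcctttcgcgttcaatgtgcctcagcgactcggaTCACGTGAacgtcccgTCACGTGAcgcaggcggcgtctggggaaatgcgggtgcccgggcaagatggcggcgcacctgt
Atp6v0b: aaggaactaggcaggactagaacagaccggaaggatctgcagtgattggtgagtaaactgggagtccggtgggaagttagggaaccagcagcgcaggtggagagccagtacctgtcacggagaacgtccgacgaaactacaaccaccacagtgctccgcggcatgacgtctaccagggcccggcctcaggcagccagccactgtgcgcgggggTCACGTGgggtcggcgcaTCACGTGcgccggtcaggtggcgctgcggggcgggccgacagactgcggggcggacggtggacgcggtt
Ctsa: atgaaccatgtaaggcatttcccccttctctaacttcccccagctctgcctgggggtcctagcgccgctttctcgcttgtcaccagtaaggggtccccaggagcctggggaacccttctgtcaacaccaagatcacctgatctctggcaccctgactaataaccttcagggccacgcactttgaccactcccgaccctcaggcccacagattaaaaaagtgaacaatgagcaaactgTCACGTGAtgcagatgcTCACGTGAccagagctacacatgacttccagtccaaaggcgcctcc
Lamtor4: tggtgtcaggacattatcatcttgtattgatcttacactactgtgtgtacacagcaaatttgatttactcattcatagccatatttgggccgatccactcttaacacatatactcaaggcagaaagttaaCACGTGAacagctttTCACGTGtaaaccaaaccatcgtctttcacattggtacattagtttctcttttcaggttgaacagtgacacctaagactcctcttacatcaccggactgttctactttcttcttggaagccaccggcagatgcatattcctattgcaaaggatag
These 4 genes did not move alike: in NDRG1-eGFP against PLP-GFP libraries Vps33a fell and the other three rose, as given below. Among the members with more than 1 copy that are not shown, Ctsd and Atg3 rose and Lamp1 and Vps26a were not called. Of the 15 members with TCACGTG, 6 rose and 1 fell in that comparison (median log2 fold change 0.39). Of the 47 members without it, 21 rose and 8 fell (median 0.35), where 26.1% and 22.2% of all genes did. With each library's trend on transcript length removed, as described below, 2 of the 15 rose and 2 fell (median 0.17). In that fit 8 of the 47 rose and 9 fell (median 0.08), and Vps33a and Atp6v0b were not called.

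In NDRG1-eGFP against PLP-GFP cells, 10 of 11 cathepsins, 2 of 5 Ragulator subunits (Lamtor2 and Lamtor4) and Tfeb rose. Of 16 vacuolar ATPase subunits 6 rose and 2 (Atp6v0a2 and Atp6v0c) fell, and Atg2a, Atg2b, Atg4a, Atg4c, Vps54 and Vps8 also fell. In all, 34 of 83 members rose and 12 fell, where 26.1% of all genes rose and 22.2% fell. The median log2 fold change of the members was 0.30, and that of all genes 0.08. In 60 of the 83 members the 3 libraries of one group did not overlap those of the other, as in 7510 of the 11315 genes. Between PLP-GFP and PDGFRa-GFP cells 3 members rose and 9 fell (8.46% and 8.53% of all genes), with a median of -0.14. Between NDRG1-eGFP and PDGFRa-GFP cells 16 rose and 10 fell (10.7% and 10.4% of all genes), with a median of 0.18. The 3 comparisons share libraries, so their values stand side by side and are not independent. Atp6v1g2 was not called in the first comparison, with means of 9.20 in NDRG1-eGFP and 9.18 in PLP-GFP libraries, but was called in the others. Ctsk was called in all, and 28 members were called in none.

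**Figure D1:**
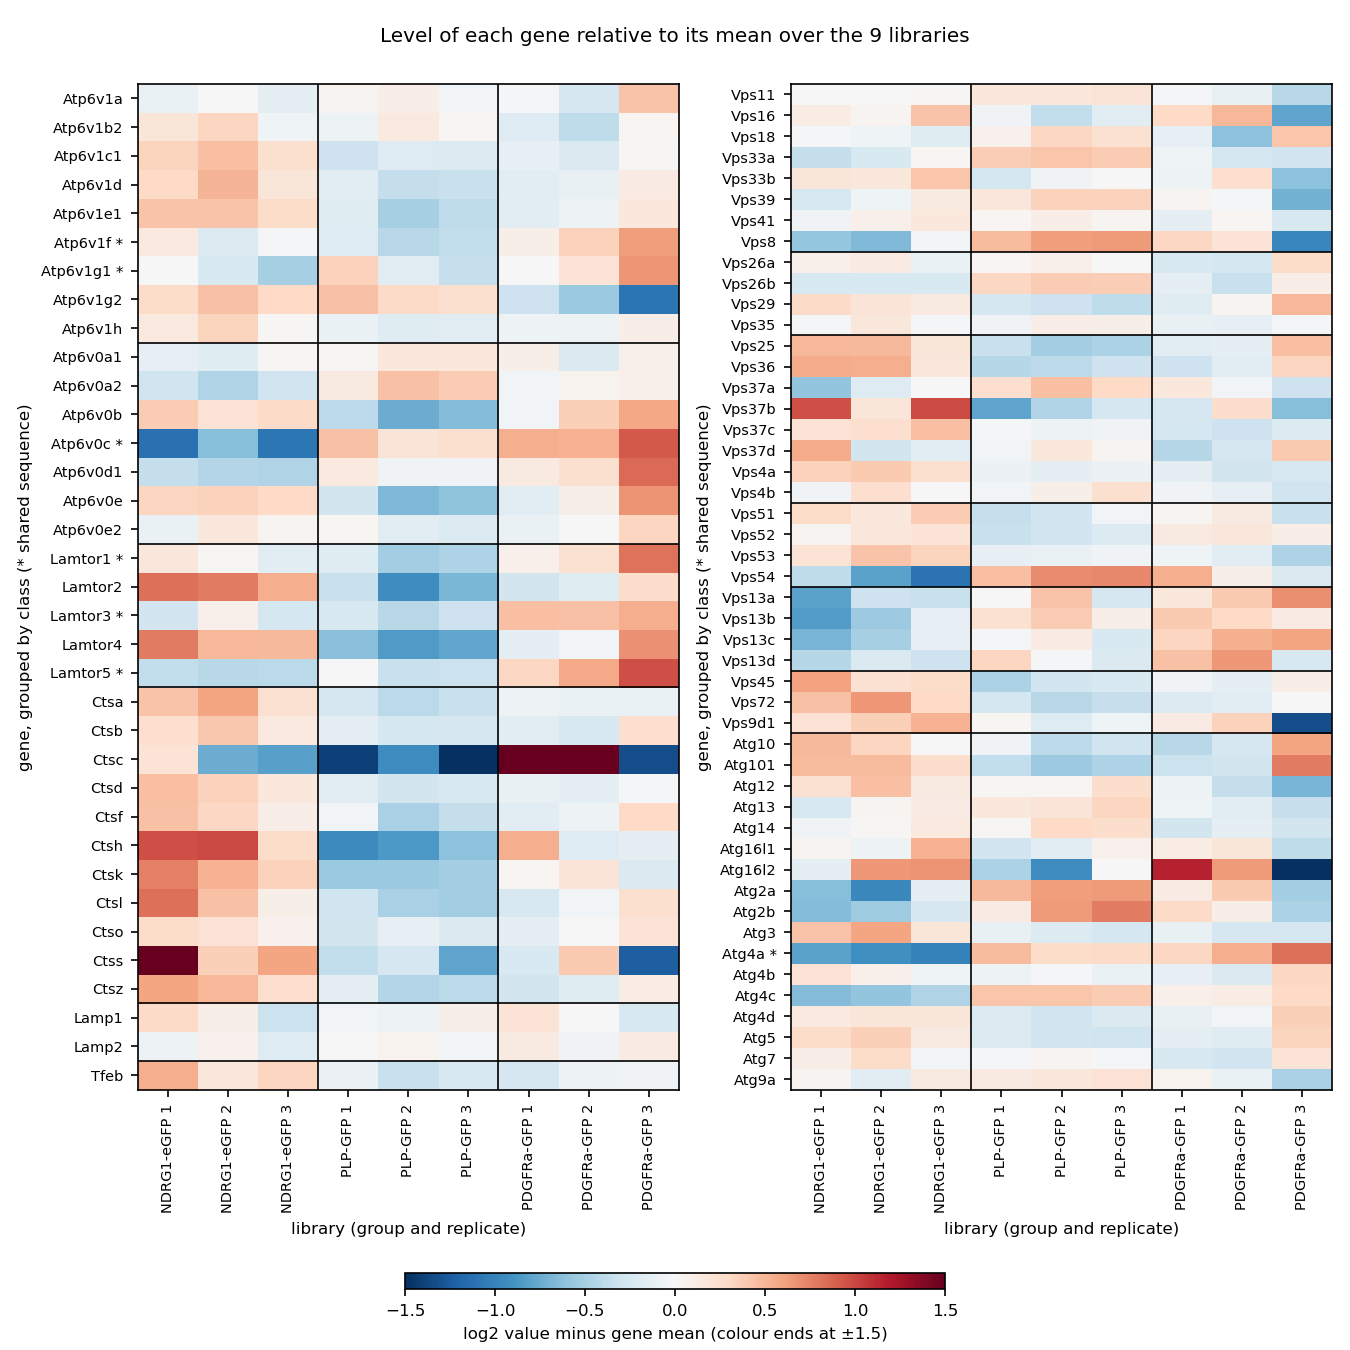
Log2 value of each of the 83 members minus its mean over the 9 libraries, with libraries as columns (NDRG1-eGFP left, PLP-GFP middle, PDGFRa-GFP right) and genes as rows grouped by class. Red is above and blue below the gene's mean, the colour ends at 1.5, and most cathepsins are red in NDRG1-eGFP and blue in PLP-GFP libraries.

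The calls rested unevenly on single libraries. Of the 46 members called between NDRG1-eGFP and PLP-GFP, 32 were called in every fit that left out 1 library of those groups. Leaving out 1 library left 23 to 30 higher and 10 to 13 lower members there. None of the 12 calls between PLP-GFP and PDGFRa-GFP held in every such fit: without PLP-GFP replicate 2 no member was called, and without PLP-GFP replicate 3 none rose and 1 fell. There 1 rose without PLP-GFP replicate 1, 1 rose and 4 fell without PDGFRa-GFP replicate 2, and 6 rose and 12 fell without PDGFRa-GFP replicate 3. Between NDRG1-eGFP and PDGFRa-GFP 10 of 26 calls held in every such fit. There, 7 members rose without NDRG1-eGFP replicate 1, 6 without NDRG1-eGFP replicate 2, 8 without PDGFRa-GFP replicate 1, 10 without PDGFRa-GFP replicate 2 and 28 without PDGFRa-GFP replicate 3, where 16 fell.

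Transcript length moved with these differences over the whole table. Each gene's deviation from its mean over the 9 libraries correlated with transcript length at a Spearman value of -0.47, -0.40 and -0.27 for NDRG1-eGFP, of 0.36, 0.52 and 0.50 for PLP-GFP and of 0.23, 0.01 and -0.32 for PDGFRa-GFP replicates 1 to 3. Across the 76 members without shared sequence, the fold change between NDRG1-eGFP and PLP-GFP correlated with length at -0.68, and across all 10172 such genes at -0.59. Among transcripts under 1500 bases, bounds chosen after seeing the data, 9 of 10 unshared members rose (median 0.85), as did 917 of 1342 unshared genes (median 0.84). Among those over 4000 bases, 2 of 20 members rose and 8 fell (median -0.37), against 201 and 1372 of 3300 genes (median -0.48). With each library's trend on length removed, 14 members rose and 13 fell between NDRG1-eGFP and PLP-GFP, where 14.2% and 16.9% of 11273 genes with a length did. That fit gave 1 higher and 3 lower between PLP-GFP and PDGFRa-GFP (3.06% and 4.53% of genes) and 3 and 11 between NDRG1-eGFP and PDGFRa-GFP (4.54% and 10.3%). Of the calls made on the values as deposited, 17 of 46, 3 of 12 and 10 of 26 kept their direction and their call. Whether length, RNA quality or cell state set the trend was not tested, so both values are given below.

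**Figure D2:**
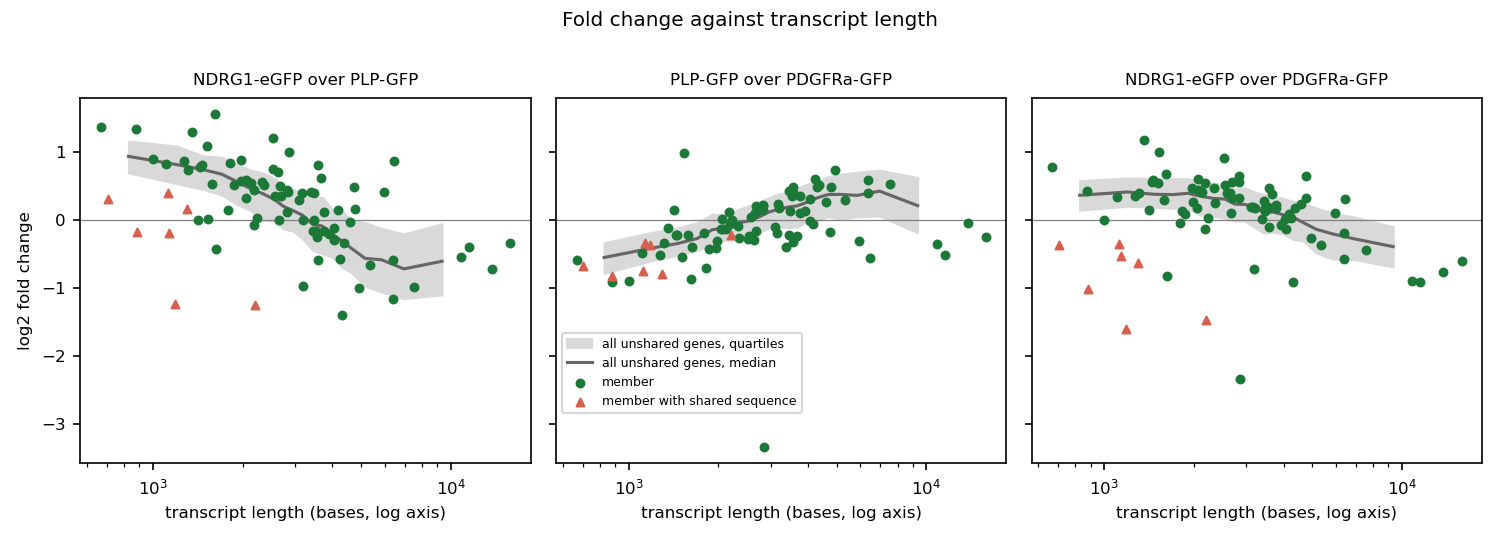
Log2 fold change of each member (circles, and triangles for members with shared sequence) against transcript length in bases on a log axis, in the 3 comparisons, with the median and quartiles of all unshared genes in grey. Members follow the grey band, falling with length in NDRG1-eGFP over PLP-GFP (Spearman -0.68 over 76 unshared members), and triangles lie below the band in both NDRG1-eGFP comparisons.

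Sequence shared with other loci marked a second group. In 7 members over 5 percent of the 50-base windows of the transcript also occur in a transcript of another locus, mostly a processed pseudogene. They were Atp6v1f (18.2%), Atp6v1g1 (19.2%), Atp6v0c (32.5%), Lamtor1 (18.4%), Lamtor3 (18.9%), Lamtor5 (14.5%) and Atg4a (63.6%). Reads of these genes could be split between copies, and their values are uncertain. With the length trend removed all 7 fell in NDRG1-eGFP against PLP-GFP libraries, as did 611 of the 1101 shared genes of the table, and the same 7 fell against PDGFRa-GFP libraries, as did 553 of 1101.

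Of the 11 cathepsins, 10 rose in NDRG1-eGFP against PLP-GFP libraries and none fell, where 26.1% of all genes rose and 22.2% fell. Their median log2 fold change was 0.78. For all 11 the libraries of the groups did not overlap, which also held for most genes of the table. Ctsk, a cysteine protease best known from osteoclasts (chr3:95499256-95509362), had 12.24, 12.002 and 11.84 in NDRG1-eGFP libraries, 10.93, 10.92 and 10.97 in PLP-GFP libraries and 11.51, 11.68 and 11.27 in PDGFRa-GFP libraries. Its groups were separate, with NDRG1-eGFP highest and PLP-GFP lowest, and it rose by 1.08 ± 0.15 (adjusted p = 0.000375). Ctsa, a carboxypeptidase that also protects other lysosomal enzymes (chr2:164832873-164841032), had 14.93, 15.10 and 14.74 in NDRG1-eGFP libraries, 14.26, 14.10 and 14.17 in PLP-GFP libraries and 14.43, 14.41 and 14.41 in PDGFRa-GFP libraries. It was highest in every NDRG1-eGFP library and rose by 0.74 ± 0.12 against PLP-GFP (adjusted p = 0.000735). Ctsh, an aminopeptidase (chr9:90054152-90076089), was low, with 8.61, 8.64 and 7.93 in NDRG1-eGFP, 6.70, 6.79 and 7.03 in PLP-GFP and 8.19, 7.46 and 7.50 in PDGFRa-GFP libraries, and rose by 1.56 ± 0.31 (adjusted p = 0.00271). Its NDRG1-eGFP values overlapped only those of PDGFRa-GFP.

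The most abundant cathepsins per length were Ctsd, the aspartic protease, and Ctsb, a cysteine protease, at 13.79 and 13.67 on the log2 scale per kilobase. Between NDRG1-eGFP and PLP-GFP libraries the log2 fold change was 0.54 ± 0.11 for Ctsd and 0.49 ± 0.14 for Ctsb. Ctsz rose by 0.78 ± 0.15, Ctsl by 0.88 ± 0.19, Ctsf by 0.58 ± 0.17, Ctso by 0.39 ± 0.13 and Ctss by 1.30 ± 0.42. Ctsc, which activates serine proteases of immune cells, did not pass (0.996 ± 1.07), and its PDGFRa-GFP libraries were far apart: it had 8.36, 7.41 and 7.34 in NDRG1-eGFP libraries, 6.75, 7.21 and 6.16 in PLP-GFP libraries and 12.20, 11.12 and 6.83 in PDGFRa-GFP libraries. Against PDGFRa-GFP, 4 cathepsins rose in NDRG1-eGFP libraries, namely Ctsa (0.51 ± 0.12), Ctsd (0.41 ± 0.11), Ctsk (0.54 ± 0.15) and Ctsz (0.56 ± 0.15). In that comparison 10.7% of all genes rose. In PLP-GFP against PDGFRa-GFP libraries Ctsk fell by 0.54 ± 0.15, a call lost without any 1 library of these groups but PDGFRa-GFP replicate 3 (adjusted p up to 0.132).

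Leaving out 1 library left 6 to 10 cathepsins higher between NDRG1-eGFP and PLP-GFP, with 6 without PLP-GFP replicate 3. Those lost in some fit were Ctsb (without NDRG1-eGFP replicate 2 or PLP-GFP replicate 2 or 3), Ctsf (NDRG1-eGFP replicate 1 or 2, PLP-GFP replicate 2 or 3), Ctso (any but NDRG1-eGFP replicate 3) and Ctss (NDRG1-eGFP replicate 1, PLP-GFP replicate 1 or 3), with an adjusted p of up to 0.105. With the length trend removed 4 rose, where 14.2% of genes did. They were Ctsa (0.53 ± 0.10, adjusted p = 0.00419), Ctsb (0.91 ± 0.17, adjusted p = 0.00355), Ctsh (0.99 ± 0.32, adjusted p = 0.0408) and Ctso (0.48 ± 0.12, adjusted p = 0.0146). Ctsk was 0.49 in that fit with an adjusted p of 0.0607, and Ctsl 0.45 with 0.0534. The 4 cathepsin calls between NDRG1-eGFP and PDGFRa-GFP were lost in that fit. Without NDRG1-eGFP replicate 2 none of the 4 remained, and 1 was called without NDRG1-eGFP replicate 1 or PDGFRa-GFP replicate 1 and 2 without PDGFRa-GFP replicate 2.

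Microglial and fibroblast-like markers and immediate early genes moved with the cathepsins between NDRG1-eGFP and PLP-GFP libraries, where 26.1% of all genes rose. No astrocyte, neuron or endothelial marker was called there. Between NDRG1-eGFP and PDGFRa-GFP, 2 microglial markers rose, and no fibroblast-like marker or immediate early gene was called. Microglial markers rose in NDRG1-eGFP against PLP-GFP libraries in 10 of 15 measured genes, and in 6 with the length trend removed. Their summed level on the log2 scale ran from 12.83 to 13.41 in NDRG1-eGFP, from 11.76 to 12.28 in PLP-GFP and from 12.14 to 12.87 in PDGFRa-GFP libraries, and no marker was under 3 in all libraries. Fibroblast-like markers rose in 5 of 6 in either fit and fell in none, with summed levels of 11.06 to 12.78 in NDRG1-eGFP, 7.08 to 8.58 in PLP-GFP and 12.25 to 13.03 in PDGFRa-GFP libraries. Immediate early genes, which respond to cell dissociation, rose in 11 of 16 (6 with the length trend removed), with summed levels of 17.62, 15.06 and 18.03 in NDRG1-eGFP, 14.25, 14.18 and 14.39 in PLP-GFP and 17.88, 17.88 and 14.20 in PDGFRa-GFP libraries. Their part in the cathepsin values was not tested. Ctss, a protease abundant in microglia, had 10.43, 9.25 and 9.496 in NDRG1-eGFP, 8.53, 8.65 and 8.10 in PLP-GFP and 8.67, 9.30 and 7.67 in PDGFRa-GFP libraries.

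**Figure D3:**
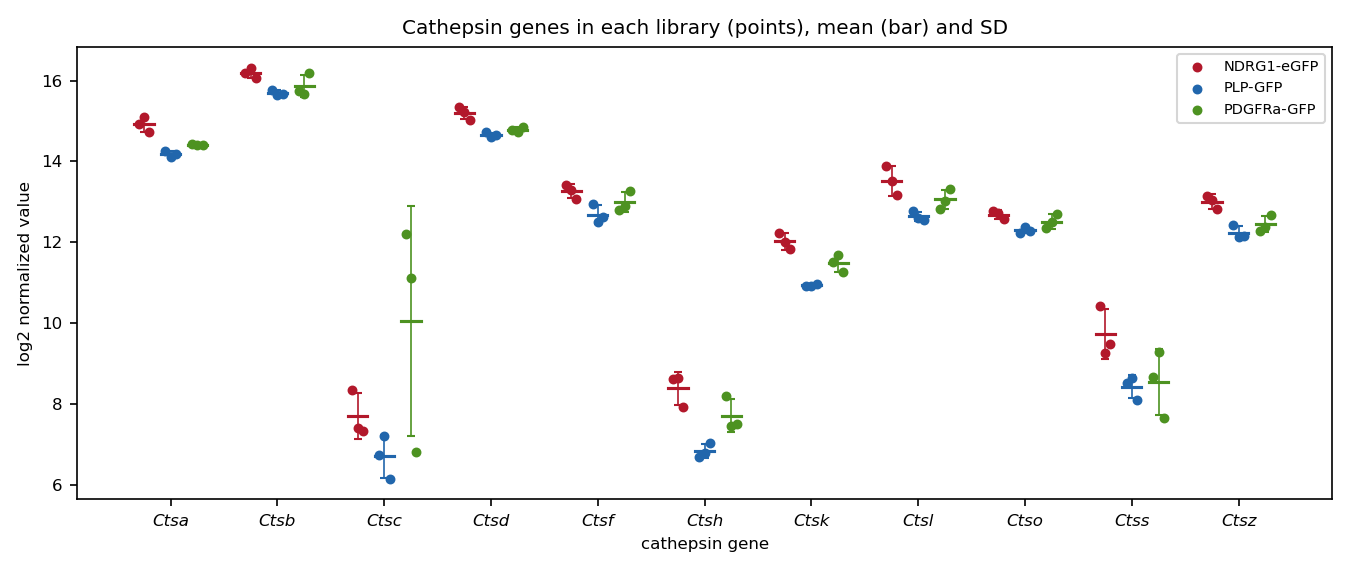
Log2 normalized value of the 11 cathepsin genes in each library (points), with the mean (horizontal bar) and SD of each group of 3; NDRG1-eGFP is left, PLP-GFP middle and PDGFRa-GFP right within each gene. For all 11 genes the NDRG1-eGFP points lie above the PLP-GFP points, and Ctsc is spread over more than 5 log2 units in PDGFRa-GFP.

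Of all genes 26.1% rose and 22.2% fell between NDRG1-eGFP and PLP-GFP libraries, where 4 of the 9 V1 subunits rose and none fell. They were Atp6v1e1 of the peripheral stalk (0.74 ± 0.13), Atp6v1d of the rotor (0.61 ± 0.14), Atp6v1c1 (0.57 ± 0.12) and the regulatory subunit Atp6v1h (0.32 ± 0.12, lost without any 1 library of these groups but NDRG1-eGFP replicate 3, adjusted p up to 0.172). Atp6v1d (chr12:78840725-78861638) had 12.72, 12.93 and 12.60 in NDRG1-eGFP libraries, 12.26, 12.06 and 12.08 in PLP-GFP libraries and 12.25, 12.31 and 12.54 in PDGFRa-GFP libraries. It alone of the V1 subunits rose with the length trend removed (0.75 ± 0.14, adjusted p = 0.00273), while the shared Atp6v1f (-0.46) and Atp6v1g1 (-0.89) fell there. The catalytic subunit Atp6v1a and the nucleotide-binding subunit Atp6v1b2 were not called in any comparison, with log2 fold changes between -0.13 and 0.33.

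Of the 2 isoforms of the G subunit, 1 was called on the deposited values. Atp6v1g2, the G isoform of the nervous system (chr17:35233660-35238767), had 9.13, 9.30 and 9.16 in NDRG1-eGFP libraries, 9.31, 9.15 and 9.10 in PLP-GFP libraries and 8.55, 8.31 and 7.77 in PDGFRa-GFP libraries. The PDGFRa-GFP libraries were all lowest. It rose in PLP-GFP against PDGFRa-GFP libraries by 0.98 ± 0.22 (adjusted p = 0.0203) and in NDRG1-eGFP against PDGFRa-GFP libraries by 0.99 ± 0.22 (adjusted p = 0.013), and with the length trend removed by 1.28 and 0.70, the second with an adjusted p of 0.112. The first of these calls was lost without any 1 PLP-GFP library (adjusted p up to 0.0889). Atp6v1g1, which is shared, was not called on the deposited values in any comparison (-0.19, -0.34 and -0.53).

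Among V0 subunits the direction differed. Atp6v0b, which forms part of the proton ring (chr4:117884326-117887333), had 14.83, 14.68 and 14.74 in NDRG1-eGFP libraries, 14.06, 13.71 and 13.80 in PLP-GFP libraries and 14.42, 14.82 and 15.04 in PDGFRa-GFP libraries. PLP-GFP libraries were lowest, and it rose in NDRG1-eGFP against PLP-GFP by 0.89 ± 0.16 and fell in PLP-GFP against PDGFRa-GFP by 0.90 ± 0.16 (adjusted p = 0.00154 and 0.0094). With the length trend removed the first was 0.17 and not called and the second was -0.41 (adjusted p = 0.0355). Atp6v0e, a small subunit, did the same on the deposited values (0.84 ± 0.20 and -0.72 ± 0.20), but neither was called with the trend removed, and the second was lost without PLP-GFP replicate 2 or 3 or PDGFRa-GFP replicate 2 (adjusted p up to 0.154). The second Atp6v0b call was lost without PLP-GFP replicate 2 (adjusted p = 0.0562). Its isoform Atp6v0e2 was not called in any comparison as deposited, with log2 fold changes of 0.15, -0.19 and -0.04, and was -0.36 (adjusted p = 0.0309) in the first with the trend removed.

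Atp6v0d1, which couples the ring to the rotor (chr8:105524465-105566047), had 12.69, 12.60 and 12.59 in NDRG1-eGFP libraries, 13.18, 12.99 and 12.99 in PLP-GFP libraries and 13.17, 13.29 and 13.89 in PDGFRa-GFP libraries. NDRG1-eGFP libraries were lowest without overlap, and it fell against PDGFRa-GFP by 0.82 ± 0.17 (adjusted p = 0.00915) in every leave-one-out fit. Against PLP-GFP it was -0.43 ± 0.17 and not called, and it was -0.99 ± 0.11 (adjusted p = 0.000194) with the length trend removed. It shares no sequence over 5 percent. Atp6v0c, the main ring subunit (chr17:24163866-24169702), had 11.83, 12.30 and 11.86 in NDRG1-eGFP libraries, 13.39, 13.14 and 13.19 in PLP-GFP libraries and 13.49, 13.46 and 13.87 in PDGFRa-GFP libraries. It fell by 1.24 ± 0.17 and 1.61 ± 0.17 in NDRG1-eGFP against the others (adjusted p = 0.000306 and 9.36e-05), but 32.5% of its windows are shared, chiefly with the processed pseudogene Atp6v0c-ps2. Of the large membrane subunits, Atp6v0a2 fell in NDRG1-eGFP against PLP-GFP (-0.67 ± 0.12; -0.15 and not called with length removed), while its isoform Atp6v0a1 was not called.

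Ragulator subunits split by shared sequence. Lamtor2 (chr3:88549819-88553074) had 12.19, 12.14 and 11.91 in NDRG1-eGFP libraries, 11.03, 10.44 and 10.68 in PLP-GFP libraries and 11.09, 11.18 and 11.63 in PDGFRa-GFP libraries. Lamtor4 (chr5:138255482-138259398) had 11.86, 11.58 and 11.58 in NDRG1-eGFP libraries, 10.46, 10.24 and 10.31 in PLP-GFP libraries and 10.95, 11.04 and 11.77 in PDGFRa-GFP libraries. Both were higher in every NDRG1-eGFP than PLP-GFP library and rose by 1.36 ± 0.19 and 1.34 ± 0.21 (adjusted p = 0.000405 and 0.000689). They still rose with the length trend removed, by 0.59 ± 0.12 and 0.60 ± 0.11 (adjusted p = 0.00375 and 0.00298). Lamtor2 also rose against PDGFRa-GFP (0.78 ± 0.19), and in that fit by 0.65, but the call on deposited values was lost without NDRG1-eGFP replicate 1 or 2 or PDGFRa-GFP replicate 1 or 2 (adjusted p up to 0.0673). The other 3 members, Lamtor1, Lamtor3 and Lamtor5, are shared and were 0.40, 0.16 and -0.18 between NDRG1-eGFP and PLP-GFP, not called.

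In PLP-GFP against PDGFRa-GFP libraries 8.53% of all genes fell, and so did 4 of 5 Ragulator genes. Their log2 fold changes were -0.92 ± 0.21 (Lamtor4), -0.83 ± 0.17 (Lamtor5, shared), -0.80 ± 0.15 (Lamtor3, shared) and -0.76 ± 0.19 (Lamtor1, shared). None was called with the length trend removed, none without PLP-GFP replicate 2 or PLP-GFP replicate 3, and Lamtor1 also not without PDGFRa-GFP replicate 2. Lamtor3 (-0.64 ± 0.15) and Lamtor5 (-1.01 ± 0.17) fell in NDRG1-eGFP against PDGFRa-GFP libraries, the first not without NDRG1-eGFP replicate 1 or 3 (adjusted p up to 0.0584).

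Tfeb, which activates lysosomal and autophagy genes when it is in the nucleus (chr17:47737030-47792419), had 13.34, 12.98 and 13.13 in NDRG1-eGFP libraries, 12.71, 12.47 and 12.58 in PLP-GFP libraries and 12.55, 12.73 and 12.75 in PDGFRa-GFP libraries. NDRG1-eGFP libraries were higher than all others, and it rose by 0.56 ± 0.13 against PLP-GFP (adjusted p = 0.00594) in every leave-one-out fit. Against PDGFRa-GFP it rose by 0.48 ± 0.13 (adjusted p = 0.0298), and the call was lost without NDRG1-eGFP replicate 1 or 3 or PDGFRa-GFP replicate 1 or 2 (adjusted p up to 0.107). With the length trend removed the changes were 0.27 and 0.24 and not called. Between PLP-GFP and PDGFRa-GFP it was -0.09 and not called.

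The LAMP genes were not called on the deposited values. Lamp1 (chr8:13159161-13175338), at 16.18 the highest member per length on the log2 scale per kilobase, had 17.62, 17.42 and 17.02 in NDRG1-eGFP libraries, 17.30, 17.26 and 17.42 in PLP-GFP libraries and 17.55, 17.34 and 17.10 in PDGFRa-GFP libraries, and the groups overlapped throughout. Lamp2 was -0.07 between NDRG1-eGFP and PLP-GFP, and -0.42 (adjusted p = 0.00882) with the length trend removed.

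HOPS and CORVET are complexes that tether vesicles to endosomes and lysosomes. Of the 8 genes grouped here under these names, 2 fell in NDRG1-eGFP against PLP-GFP libraries and none rose. Vps33a, a fusion regulator (chr5:123528659-123573038), had 11.62, 11.75 and 12.002 in NDRG1-eGFP libraries, 12.35, 12.39 and 12.36 in PLP-GFP libraries and 11.91, 11.71 and 11.68 in PDGFRa-GFP libraries, with PLP-GFP highest. It fell by 0.57 ± 0.13 (adjusted p = 0.00537), and rose in PLP-GFP against PDGFRa-GFP by 0.60 ± 0.13 (adjusted p = 0.0174, up to 0.0895 without PLP-GFP replicate 2 or 3 or PDGFRa-GFP replicate 2). The CORVET subunit Vps8 fell (-1.01 ± 0.30, adjusted p = 0.0191, up to 0.0725 without NDRG1-eGFP replicate 1 or 2 or PLP-GFP replicate 2 or 3). With the length trend removed no gene of this group was called. Of the retromer, which returns receptors from endosomes, Vps26b fell in NDRG1-eGFP against PLP-GFP (-0.59 ± 0.13, and -0.47 with length removed, adjusted p = 0.0136) and Vps29 rose by 0.52 ± 0.16, but it was 0.04 and not called with length removed, and as deposited was lost without NDRG1-eGFP replicate 1 or 2 or PLP-GFP replicate 2 or 3 (adjusted p up to 0.0752). Vps35 and Vps26a lay within 0.01 of 0.

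ESCRT genes, which sort cargo into vesicles inside endosomes, rose in 5 of 8 in NDRG1-eGFP against PLP-GFP libraries and fell in 1. Of all genes, 26.1% rose and 22.2% fell in that comparison. The ESCRT-I subunit Vps37b (chr5:124004641-124032270) had 10.61, 9.83 and 10.63 in NDRG1-eGFP libraries, 8.86, 9.20 and 9.39 in PLP-GFP libraries and 9.39, 9.91 and 9.01 in PDGFRa-GFP libraries, and rose by 1.21 ± 0.29 (adjusted p = 0.00616). The ESCRT-II subunit Vps36 (chr8:22192809-22220843) had 11.19, 11.19 and 10.82 in NDRG1-eGFP libraries, 10.21, 10.25 and 10.33 in PLP-GFP libraries and 10.33, 10.49 and 10.96 in PDGFRa-GFP libraries. Both were higher in every NDRG1-eGFP than PLP-GFP library and were called with the length trend removed (0.98 ± 0.30 and 0.92 ± 0.19). Vps25 (0.83 ± 0.18), the ATPase Vps4a (0.44 ± 0.10) and Vps37c (0.35 ± 0.11) were not called there. Vps37a, with a transcript of 6379 bases, fell by 0.59 ± 0.18 as deposited and was 0.02 with the trend removed. Against PDGFRa-GFP libraries, Vps37c (0.56 ± 0.11), Vps4a (0.55 ± 0.10) and Vps37b (0.92 ± 0.29) rose in NDRG1-eGFP libraries, and Vps37c was called with the trend removed (0.38). The Vps37b call there was lost without replicate 1 or 3 of either group (adjusted p up to 0.142). Between NDRG1-eGFP and PLP-GFP, Vps37c was lost without NDRG1-eGFP replicate 3 or any 1 PLP-GFP library (up to 0.0826) and Vps37a without NDRG1-eGFP replicate 1 or PLP-GFP replicate 2 (up to 0.0709).

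In the GARP and EARP tethers, which act between endosomes and the Golgi, Vps54 was low in NDRG1-eGFP libraries. Vps54 (chr11:21239281-21321136) had 10.07, 9.65 and 9.34 in NDRG1-eGFP libraries, 10.90, 11.16 and 11.18 in PLP-GFP libraries and 11.00, 10.54 and 10.24 in PDGFRa-GFP libraries. The NDRG1-eGFP libraries were lowest without overlap, and it fell by 1.39 ± 0.23 against PLP-GFP (adjusted p = 0.000956) and by 0.91 ± 0.23 against PDGFRa-GFP (adjusted p = 0.0213). It also fell with the length trend removed, by 1.09 and 0.88. The deposited call against PDGFRa-GFP was lost without NDRG1-eGFP replicate 2 or 3 or PDGFRa-GFP replicate 1 (adjusted p up to 0.0695). Its partner Vps52 rose in NDRG1-eGFP against PLP-GFP libraries by 0.41 ± 0.11 (0.48 with length removed). The partners Vps51 (0.49 ± 0.15) and Vps53 (0.41 ± 0.14) also rose there, but neither was called with length removed. As deposited, Vps51 was lost without NDRG1-eGFP replicate 1 or 3 or PLP-GFP replicate 1 or 2, and Vps53 without any 1 library of these groups but NDRG1-eGFP replicate 1 (adjusted p up to 0.0958). In PLP-GFP against PDGFRa-GFP libraries Vps52 was -0.41 and was called lower with and without the length trend, though not in every leave-one-out fit.

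The 4 Vps13 genes encode long proteins that carry lipids between membranes, and their transcripts of 10838 to 15849 bases were the longest of all members. Vps13c had 8.79, 8.99 and 9.37 in NDRG1-eGFP libraries, 9.48, 9.61 and 9.26 in PLP-GFP libraries and 9.82, 10.02 and 10.08 in PDGFRa-GFP libraries. In NDRG1-eGFP against PDGFRa-GFP libraries Vps13c (-0.92 ± 0.20), Vps13a (-0.90 ± 0.24) and Vps13b (-0.77 ± 0.18) fell, and Vps13d was -0.60 and not called. Vps13a was lost without NDRG1-eGFP replicate 1 or PDGFRa-GFP replicate 2, and Vps13b without NDRG1-eGFP replicate 1 or 2 or PDGFRa-GFP replicate 1 (adjusted p up to 0.0884 and 0.0587). Against PLP-GFP libraries Vps13b fell by 0.73 ± 0.18. None was called with the length trend removed. Vps45, an endosomal fusion regulator, rose in NDRG1-eGFP against PLP-GFP libraries by 0.70 ± 0.16 and by 0.52 with length removed. Vps72, which despite its name belongs to a chromatin complex, rose by 0.81 ± 0.13 and was 0.19 and not called with length removed.

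Of the 17 Atg genes 4 rose and 4 fell in NDRG1-eGFP against PLP-GFP libraries, where 26.1% of all genes rose and 22.2% fell. Atg4c, a protease that processes the LC3 family (chr4:99193934-99259787), had 11.64, 11.71 and 11.85 in NDRG1-eGFP libraries, 12.71, 12.72 and 12.68 in PLP-GFP libraries and 12.38, 12.41 and 12.60 in PDGFRa-GFP libraries. The NDRG1-eGFP libraries were all lowest, and it fell by 0.97 ± 0.12 against PLP-GFP and by 0.73 ± 0.12 against PDGFRa-GFP (adjusted p = 0.000166 and 0.00208). It shares no sequence over 5 percent, and with the length trend removed it was -0.97 and -0.84. Its relative Atg4a (chrX:140956907-141164270) had 8.92, 8.81 and 8.71 in NDRG1-eGFP libraries, 10.20, 9.9997 and 10.01 in PLP-GFP libraries and 10.04, 10.27 and 10.55 in PDGFRa-GFP libraries. It fell by 1.26 ± 0.18 and 1.47 ± 0.18, but 63.6% of its windows also occur in Atg4a-ps on chromosome 3. Of the other relatives, Atg4d rose by 0.41 ± 0.14 (0.997 with length removed, adjusted p = 0.00238) and Atg4b was 0.15 and not called, and the Atg4d call on the deposited values was lost in each of the 6 leave-one-out fits.

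Both genes of the lipid carrier ATG2 fell in NDRG1-eGFP against PLP-GFP libraries, Atg2a by 1.17 ± 0.25 and Atg2b by 0.98 ± 0.23. Their transcripts of 6371 and 7546 bases are long, and with the trend removed they were -0.55 and -0.33 and not called. The enzymes that attach LC3 to membranes included Atg3, which rose by 0.59 ± 0.13 against PLP-GFP and 0.60 ± 0.13 against PDGFRa-GFP and was not called with the trend removed. Atg101 (0.87 ± 0.25) and Atg5 (0.52 ± 0.16) also rose against PLP-GFP, but neither did with the trend removed. Both calls were lost without NDRG1-eGFP replicate 1 or 2 or PLP-GFP replicate 2, and that of Atg5 also without PLP-GFP replicate 3 (adjusted p up to 0.076). Atg12, the small protein joined to ATG5, rose in NDRG1-eGFP against PDGFRa-GFP libraries by 0.65 ± 0.18 (0.75 with length removed), and as deposited was lost without NDRG1-eGFP replicate 1 or 2 or PDGFRa-GFP replicate 2 (adjusted p up to 0.0996). On the deposited values no Atg gene was called between PLP-GFP and PDGFRa-GFP libraries, and 8 members of the class were called in no comparison. With the length trend removed Atg4d fell in PLP-GFP against PDGFRa-GFP libraries (-0.68 ± 0.18, adjusted p = 0.0472).

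**Figure D4:**
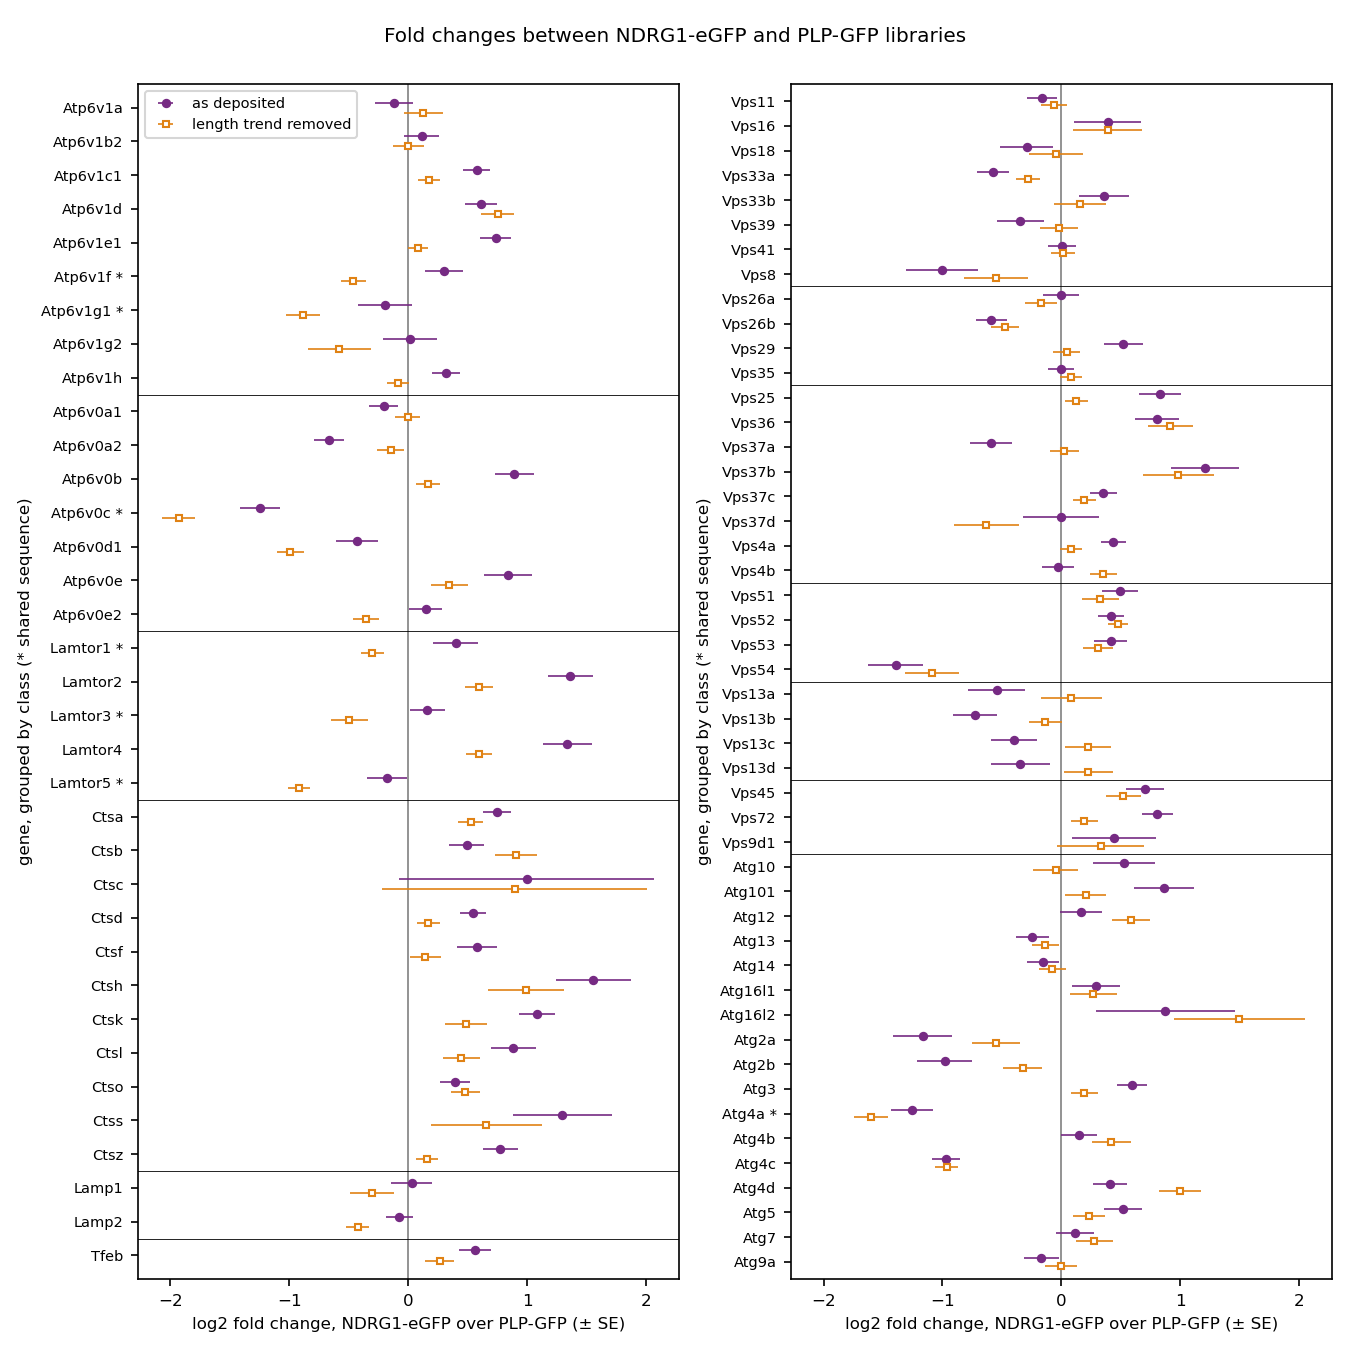
Log2 fold change with its SE of all 83 members in NDRG1-eGFP over PLP-GFP libraries, as deposited (filled circles) and with the length trend of each library removed (open squares). Ctsa, Lamtor2, Lamtor4, Vps36 and Vps37b lie above 0 and Vps54, Atg4a and Atg4c below 0 in both.

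Other genes of the same pathways gave a mixed picture. Of 47 lysosomal enzymes and membrane proteins outside the rule, 15 rose and 5 fell in NDRG1-eGFP against PLP-GFP libraries. Of all genes, 26.1% rose and 22.2% fell there. With length removed 6 rose and 6 fell, where 14.2% and 16.9% of genes did. In PLP-GFP against PDGFRa-GFP libraries 6 rose and 0 fell (8.46% and 8.53% of all genes). With length removed these were 1 and 1 (3.06% and 4.53%). In NDRG1-eGFP against PDGFRa-GFP libraries 3 rose and 2 fell (10.7% and 10.4%), and 1 and 3 with length removed (4.54% and 10.3%). The receptor Igf2r, which carries hydrolases to lysosomes, had 8.80, 9.15 and 9.21 in NDRG1-eGFP libraries, 10.47, 11.36 and 10.86 in PLP-GFP libraries and 9.94, 9.29 and 9.13 in PDGFRa-GFP libraries. It fell by 1.84 ± 0.27 in the first comparison and rose by 1.45 ± 0.27 in the second. Galc, which degrades galactosylceramide of myelin, had 11.14, 11.27 and 11.17 in NDRG1-eGFP libraries, 12.11, 12.38 and 12.20 in PLP-GFP libraries and 11.82, 11.50 and 12.19 in PDGFRa-GFP libraries, and fell by 1.04 ± 0.17 (adjusted p = 0.000936). The cholesterol carrier Npc2 rose by 0.90 ± 0.16 (adjusted p = 0.00128). Igf2r, Galc and Npc2 were also called with the length trend removed, at -1.19, -0.86 and 0.93. Hexa rose by 0.72 ± 0.12 (adjusted p = 0.00114) in the first comparison, but was 0.29 and not called with length removed.

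Of 27 measured autophagy genes outside the rule, 5 rose and 10 fell in NDRG1-eGFP against PLP-GFP libraries (26.1% and 22.2% of all genes). With length removed 4 rose and 8 fell (14.2% and 16.9%). In PLP-GFP against PDGFRa-GFP libraries 7 rose and 1 fell (8.46% and 8.53%), and 1 and 1 with length removed (3.06% and 4.53%). In NDRG1-eGFP against PDGFRa-GFP libraries 2 rose and 5 fell in either fit (10.7% and 10.4%, and 4.54% and 10.3% with length removed). Ulk1, the kinase that starts autophagy, fell in the first comparison by 1.32 ± 0.16 (adjusted p = 0.000156, and -0.98 with length removed). Map1lc3a, an LC3 gene, rose there by 1.30 ± 0.20 (0.60 with length removed, adjusted p = 0.0041). Epg5 fell there by 1.22 ± 0.17 (-0.58 with length removed, adjusted p = 0.00706). Becn1 rose by 0.46 ± 0.11 (0.79 with length removed). Gabarapl2 fell by 1.88 ± 0.19 (-2.42 with length removed) but is shared. Of 20 nutrient sensing genes at the lysosome, 5 rose and 7 fell in the first comparison, against the same shares of all genes. With length removed 3 rose and 5 fell. Among them, Fnip2, a partner of folliculin, was -2.05 ± 0.19 (-1.88 with length removed). Fnip1, also a partner of folliculin, was -0.98 ± 0.14 (-0.37 with length removed, adjusted p = 0.0382). Nprl2 rose by 0.84 ± 0.14, but was 0.22 and not called with length removed. Nprl3 rose by 0.89 ± 0.16 (0.79 with length removed). Mitf, a relative of Tfeb, rose by 0.70 ± 0.18 (0.76 with length removed).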

How the data were processed

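RNA-seq values came from 9 libraries of sorted mouse brain cells, 3 per reporter group. Each deposited file gave 1 library as log2 normalized values, put on that scale by the authors, for 11315 genes. The values ran up to 21.87 with a median of 10.57 in every library, as after quantile normalization. BWA, DESeq2 1.2.5 and the build mm10 are listed, with no role, in the submitters' processing notes. Counts and depth were not analysed here, so precision rests on the spread of 3 libraries, and 3 against 3 cannot give an exact permutation p under 0.1. Members and gene lists were chosen with earlier results of these data known.

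The planned test was used: limma-trend (limma 3.58.1, R 4.3.3) on the deposited values with no added constant, a term per group, all 9 libraries, two-sided, Benjamini-Hochberg over all genes, called at an adjusted p under 0.05. GENCODE M21 annotation of GRCm38 (mm10) gave transcript length and shared sequence for 11273 symbols. Length is the median over a gene's best supported coding transcripts, and a lowess trend with a span of 0.3 was removed per library. Named genes were, by a fixed rule, Tfeb, up to 3 called members a class and direction with the smallest adjusted p, isoforms, class extremes, and up to 4 genes of each list. Other members and genes, such as Ctsc, Ctss, Atg4d, Becn1 and Mitf, were named after their values were seen. Simulated data tested the fit: for NDRG1-eGFP against PLP-GFP over 11315 genes it recovered 59% of genes changed by 1 and 88% of those changed by 2 on the log2 scale. Of the simulated calls 4.55% were false there, 8.98% for PLP-GFP against PDGFRa-GFP and 3.25% for NDRG1-eGFP against PDGFRa-GFP. Each simulated gene had 1 spread in all 9 libraries, so groups whose libraries differ more than others were not covered. Markers of oligodendrocytes, progenitors, microglia, astrocytes, neurons, endothelium and fibroblast-like cells and immediate early genes were counted. Astrocyte markers and neuron markers were called in no comparison, progenitor markers in 1 higher and 1 lower of 7 in each, and 1 endothelial marker of 2 in both comparisons with PDGFRa-GFP. Of 10 oligodendrocyte markers 3 rose and 2 fell between NDRG1-eGFP and PLP-GFP.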

Additional observations from a re-analysis of the deposited data

How the results depend on the processing

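Counts are given for members higher and lower. Between NDRG1-eGFP and PLP-GFP the 34 higher became 14 with the length trend removed, 12 with shared genes also left out, 14 with length from the longest coding transcript, 22 at an adjusted p under 0.01 and 6 past a log2 fold change of 1 in size. The 12 lower became 6 with both length and shared genes handled and 5 at that fold. Between PLP-GFP and PDGFRa-GFP the 3 higher became 1 with length removed by each of these 3 ways, 1 in a fit of only these groups, 0 at 0.01 and 0 at that fold. The 9 lower there became 3, 3 and 4 by the 3 ways, 5 in the fit of 2 groups, 5 without shared genes, 1 at 0.01 and 0 at that fold. Between NDRG1-eGFP and PDGFRa-GFP the 16 higher became 3, 2 and 4 by the 3 ways, 4 in the fit of 2 groups, 8 after recentring on the median ratio, 3 at 0.01 and 0 at that fold. The 10 lower became 4 with both length and shared genes handled, 6 in the fit of 2 groups, 6 without shared genes, 6 at 0.01 and 3 at that fold. Without 1 library the ranges were 23 to 30 and 10 to 13 between NDRG1-eGFP and PLP-GFP, 0 to 6 and 0 to 12 between PLP-GFP and PDGFRa-GFP, and 6 to 28 and 7 to 16 between NDRG1-eGFP and PDGFRa-GFP. Adding 5 on the linear scale, a mean of at least 8, upper-quartile recentring and robust empirical Bayes left every count within 1.5 times. With PDGFRa-GFP replicate 3 and NDRG1-eGFP replicate 2 left out together, chosen after seeing the data as was the handling of shared genes with length and of the longest transcript, each of the 6 counts was also within 1.5 times. Of single members, Atp6v1e1 (-0.00766) and Vps29 (-0.0250) turned sign in NDRG1-eGFP against PLP-GFP with length removed and shared genes left out, and Vps37a turned sign to 0.0250 with length removed, 0.0250 with the replicate block as well and 0.0174 with shared genes left out, with adjusted p from 0.895 to 0.960 in these limma fits. The cause of these changes was not tested.

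Same-numbered libraries deviated with correlations of -0.23 to 0.09, so the numbers were not taken as pairs. With the replicate block 27 and 12 members rose and fell between NDRG1-eGFP and PLP-GFP, 1 and 4 between PLP-GFP and PDGFRa-GFP, and 7 and 9 between NDRG1-eGFP and PDGFRa-GFP. With the replicate block and the length trend removed these were 10 and 10, 1 and 1, and 2 and 10. Depth is unknown, and 3 libraries a group limit what could be called.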
